A study of Mus musculus with 4 samples.

Results

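The genes described here are the cyclins, the cyclin-dependent kinases (CDKs), the CDK inhibitors, the E2F transcription factors and the retinoblastoma (Rb) family. They were chosen by gene symbol alone, among probe sets that the platform annotation assigns to exactly 1 symbol, and the rule itself uses no measured value. By this rule 65 of 18193 genes on the array were members, with 149 probe sets. These include Ccnb1ip1 and Ccndbp1, whose symbols match the rule although they are named as cyclin-binding proteins and are not cyclins. The study compared 2 mouse melanocyte lines derived from skin on the Balb/c background. The non-pigmented line carries the tyrosinase point mutation on both alleles, and the pigmented line is wild type because that mutation was corrected. Both were cultured in RPMI medium with fetal calf serum, 2-mercaptoethanol and the phorbol ester TPA, so both lines had received a protein kinase C activator; the confluence at harvest is not specified. Total RNA was measured on 4 Affymetrix mouse expression arrays, 2 for each line, and the labels do not say whether the arrays of a line came from separate cultures, or whether a line is 1 clone.

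In dividing cells, D cyclins activate CDK4 and CDK6, and E cyclins activate CDK2. These kinases phosphorylate Rb proteins, which releases E2F factors to drive the genes of DNA replication. A and B cyclins with CDK1 then carry the cell through mitosis, and the Cip/Kip and Ink4 inhibitors hold the kinases in check. Messenger RNAs of several members, called periodic here, rise and fall with the cell cycle, whereas those of most CDKs stay level through it. In melanocytes CDK2 has a further link: its gene lies beside Pmel, the gene of the melanosome fibril protein, and is a known target of the melanocyte factor MITF. In the RefSeq gene table of assembly GRCm38.p6, the whole of Cdk2 lies within the span annotated for Pmel.

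The results below turn on Cdk2, Cdk6 and the periodic genes, so the promoter windows of Cdk2, Cdk6, Cdk1 and Ccnb2 are shown, the last pair standing for the periodic genes. Each holds 250 bases before and 50 bases after the annotated start, 5′ to 3′ on the gene's strand, from RefSeq (GRCm38.p6). Capitals mark matches on either strand. The letters sought were TTTNNCGC (called the E2F core here, loosely, with any base at N) and TTTGAA (the cell cycle homology element, or CHR). The others were CCAAT (the NF-Y box) and the E-box letters CATGTG and CACGTG that MITF can bind. No base lay in more than 1 match in these 4 windows.
Cdk2 (chr10:128705002-128705301, minus strand): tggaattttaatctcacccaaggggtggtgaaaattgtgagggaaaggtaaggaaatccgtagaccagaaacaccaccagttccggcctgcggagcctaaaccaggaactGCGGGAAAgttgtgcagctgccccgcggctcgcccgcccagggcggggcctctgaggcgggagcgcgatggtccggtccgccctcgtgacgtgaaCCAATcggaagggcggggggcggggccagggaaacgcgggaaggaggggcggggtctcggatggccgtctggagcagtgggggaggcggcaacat
Cdk6 (chr5:3343643-3343942, plus strand): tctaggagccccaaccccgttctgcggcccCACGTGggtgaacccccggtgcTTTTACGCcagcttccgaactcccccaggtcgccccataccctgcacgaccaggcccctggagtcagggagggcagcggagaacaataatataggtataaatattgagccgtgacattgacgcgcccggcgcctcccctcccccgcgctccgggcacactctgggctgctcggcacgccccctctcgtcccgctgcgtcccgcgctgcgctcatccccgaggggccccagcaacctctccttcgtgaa
Cdk1 (chr10:69352863-69353162, minus strand): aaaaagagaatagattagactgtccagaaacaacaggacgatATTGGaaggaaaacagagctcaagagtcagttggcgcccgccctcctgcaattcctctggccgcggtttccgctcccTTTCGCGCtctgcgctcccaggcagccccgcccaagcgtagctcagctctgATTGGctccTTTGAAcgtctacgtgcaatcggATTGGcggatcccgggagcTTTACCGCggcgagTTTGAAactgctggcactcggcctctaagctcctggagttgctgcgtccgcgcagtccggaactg
Ccnb2 (chr9:70421505-70421804, minus strand): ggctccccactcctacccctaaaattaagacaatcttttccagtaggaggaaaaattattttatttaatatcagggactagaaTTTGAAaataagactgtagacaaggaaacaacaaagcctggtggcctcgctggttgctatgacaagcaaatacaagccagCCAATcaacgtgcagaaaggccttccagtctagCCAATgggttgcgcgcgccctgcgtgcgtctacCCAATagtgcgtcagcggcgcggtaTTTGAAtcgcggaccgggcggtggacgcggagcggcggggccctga

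The Cdk2 window held 1 match to the E2F core and 1 CCAAT, with neither E-box spelling. The Cdk6 window held 1 match to the E2F core and 1 CACGTG. In Cdk1 there were 2 matches to the E2F core, 2 to TTTGAA and 3 to CCAAT, and in Ccnb2 there were 0, 2 and 3. Windows were found for 51 of the 65 members and for 11 of 13 periodic members on the array. Of these 11 genes, 4 held TTTNNCGC, 6 held TTTGAA and 8 held CCAAT, against 5.93%, 20.2% and 41.1% of all 27025 genes with a window. CATGTG and CACGTG each occurred in 1 of the 11, against 15.9% and 8.09% of all genes. These matches describe the letters of the windows, and binding was not measured here.

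The values are scaled probe set signals, and the arrays fell into pairs by a control of RNA quality. The ratio of the 3′ to the 5′ control probe set of Gapdh, which climbs when RNA is broken or incompletely copied, was 0.903 and 0.864 in replicate 1 of the non-pigmented and of the pigmented line. In replicate 2 it was 20.2 and 16.8. The former are called the low ratio pair and the latter the high ratio pair, with 1 array of each line in each. The dates in the titles divide the arrays the other way, so that each date also holds 1 array of each line, of opposite ratio. Median signals lay between 99.7 and 130. Of 8 pigment cell genes listed, all were tested and higher in the pigmented arrays without overlap, where 24.4% of all genes tested were. Past the test, 6 of 8 rose, where 1.33% of all genes tested did. Tyr, which encodes tyrosinase, read 214 and 67.2 in the non-pigmented and 17306 and 11698 in the pigmented arrays (log2 difference 6.69 ± 0.60, adjusted p of 0.00618 by limma). Sox10, a factor of the melanocyte lineage, had signals of 8268 and 8558 in the non-pigmented and 8602 and 10232 in the pigmented arrays. Of 9 Schwann cell markers listed, 7 were on the array and tested. In the pigmented line 5 of 7 fell past the test, where 2.03% of all genes tested did. The summed signal of the 7 was 22625 and 27684 in the non-pigmented against 2339 and 3352 in the pigmented arrays. The summed signal of 8 fibroblast markers was 843 to 971 against 1519 to 1635. Col1a2 was higher (200 and 348 against 1222 and 1176, adjusted p of 0.0766 by limma), and Col1a1, Col3a1, Dcn and Thy1 were lower on average. That of 8 keratinocyte markers was 932 to 936 against 576 to 604, and 1 of 4 tested fell past the test. That of 7 immune markers was 1403 to 3104 against 1250 to 1493. No marker on the array was listed at 0, and the part of these shifts in the results below was not tested.

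Cdk2 rose and Cdk6 fell in the pigmented line, and no other member passed the test. The differences were tested on log2(signal + 16) with limma, 1 probe set a gene, and called at an adjusted p under 0.05 over the 12558 genes that passed a filter on dim signals. Of the 65 members 60 were tested, so 1 of 60 was called higher and 1 of 60 lower. Among all genes tested, 3.36% were called, 1.33% higher and 2.03% lower, so the number of members called was close to the background. Over all genes that was 167 higher and 255 lower, and 132 and 323 with each array centred on its median. With the dates as a block 1 member was called, Cdk2, where 3.12% of all genes were. With the ratio pairs as a block 3 were called, Cdk2 higher and Cdk6 and Cdkn1a lower, where 7.04% of all genes were, 2.72% higher and 4.32% lower. Unadjusted, 4 of 60 members had p under 0.05, where 13.8% of all genes tested did. The median log2 difference over the members tested was 0.14, against 0.07 over all genes tested. After centring each array on its median these medians became -0.14 and -0.20, so the sign of the members' median depends on the scaling. Groups did not overlap in 9 members that were higher and 8 that were lower in the pigmented arrays, out of 60, where 24.4% and 19.5% of all genes tested did so (43.9% in either direction).

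**Figure D1:**
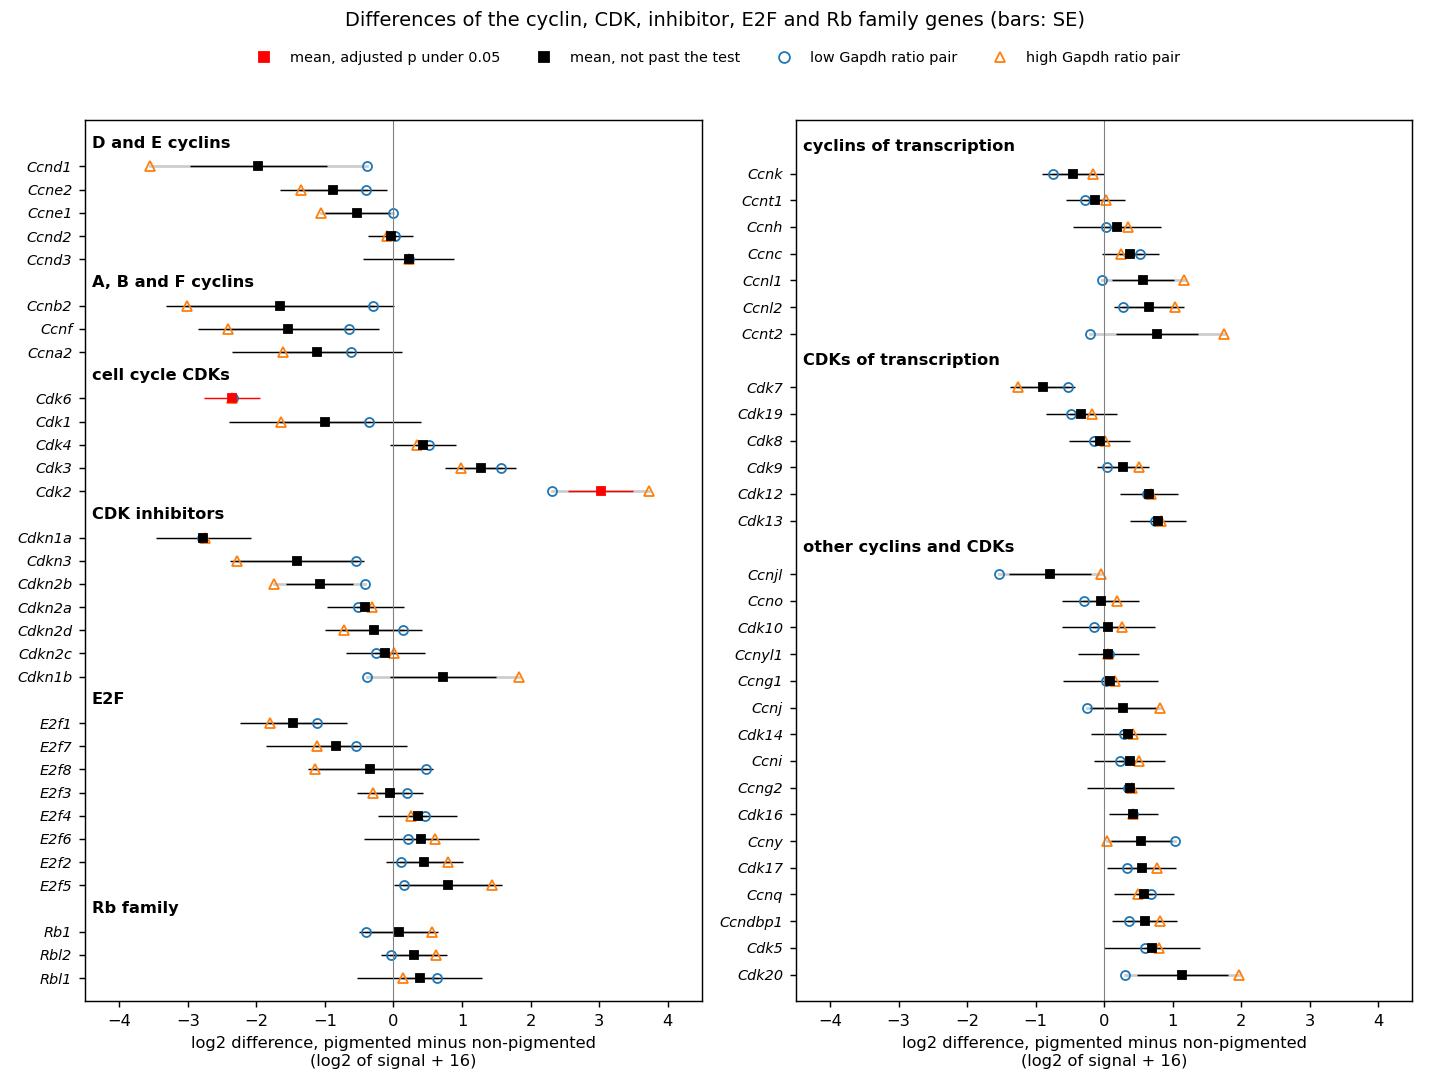
Log2 difference, pigmented minus non-pigmented, of the 60 members tested, by role; squares are means with SE bars, circles and triangles the single difference within the low and the high Gapdh ratio pair. Cdk2 (3.02) and Cdk6 (-2.35), in red, are the members past the test, and the triangles of Ccnd1, Ccnb2 and Ccnf lie at -3.56, -3.01 and -2.42.

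Cdk2 encodes the kinase that partners cyclins E and A. The non-pigmented arrays read 1660 and 823 and the pigmented arrays 8341 and 11097, given here and below as replicate 1 and then replicate 2. Both pigmented arrays were far above both non-pigmented ones. The log2 value was 10.21 ± 0.71 (SD, n = 2) in the non-pigmented and 13.23 ± 0.29 (SD, n = 2) in the pigmented line. The log2 difference was 3.02 ± 0.47 (SE), which is 8.13-fold (adjusted p of 0.0275 by limma). The call was lost without non-pigmented replicate 2, when the log2 difference was 2.52 and the adjusted p of limma 0.0874. The difference was 2.32 in the low and 3.73 in the high ratio pair, and 2.73 and 3.32 within the first and second date. A second Cdk2 probe set was dim on all 4 arrays, with signals of 2.13 and 10.4 against 17.5 and 19.6, under the filter value of 70.7. The mean over both probe sets gave 1.84, with an adjusted p of 0.0612 by limma. Thus the call rests on 1 probe set.

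Pmel, which overlaps Cdk2 in the annotation, moved in the same direction. Its signal was 1075 and 811 in the non-pigmented and 19703 and 19844 in the pigmented arrays, a log2 difference of 4.38 ± 0.36 with an adjusted p of 0.00596 by limma. Mitf differed likewise, at 796 and 1576 against 13405 and 10158, a log2 difference of 3.36 ± 0.46 with an adjusted p of 0.0182. Probe positions are not in the files used here, and any contribution of Pmel transcripts to the Cdk2 signal was not tested.

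Cdk6 encodes one of the kinases of D cyclins. Its signal was 3964 and 3344 in the non-pigmented and 772 and 637 in the pigmented arrays. The groups lay far apart and each was tight, with log2 values of 11.84 ± 0.17 and 9.49 ± 0.19 (SD, n = 2). Cdk6 fell by 2.35 ± 0.41 (SE) on the log2 scale, which is 5.10-fold (adjusted p of 0.0381 by limma). The difference was -2.34 in the low and -2.36 in the high ratio pair. A second probe set ran alongside, at 3570 and 2017 against 633 and 379, and the remaining one was dim in the pigmented arrays (111 and 46.6 against 24.4 and 22.1). With the date as a block the adjusted p was 0.128. It was 0.223 without non-pigmented replicate 1, 0.175 without non-pigmented replicate 2 and 0.0689 without pigmented replicate 2, so the call was lost when any of these arrays was left out, at log2 differences of -2.23, -2.47 and -2.21. The mean over its probe sets gave -1.98 (adjusted p of 0.0773 by limma), and with every probe set tested on its own the brightest Cdk6 one had an adjusted p of 0.0657.

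The closest relative, Cdk4, had signals of 4077 and 2447 against 5875 and 3096. These groups overlapped and the log2 difference of 0.43 ± 0.49 did not pass (adjusted p of 0.789 by limma). Cdk3 had signals of 37.8 and 88.7 against 143 and 191. Its log2 difference was 1.27 ± 0.52, with an unadjusted p of 0.0475 and an adjusted p of 0.352 by limma. Its non-pigmented signals lay around the filter value, so the size depends on the pseudocount.

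**Figure D2:**
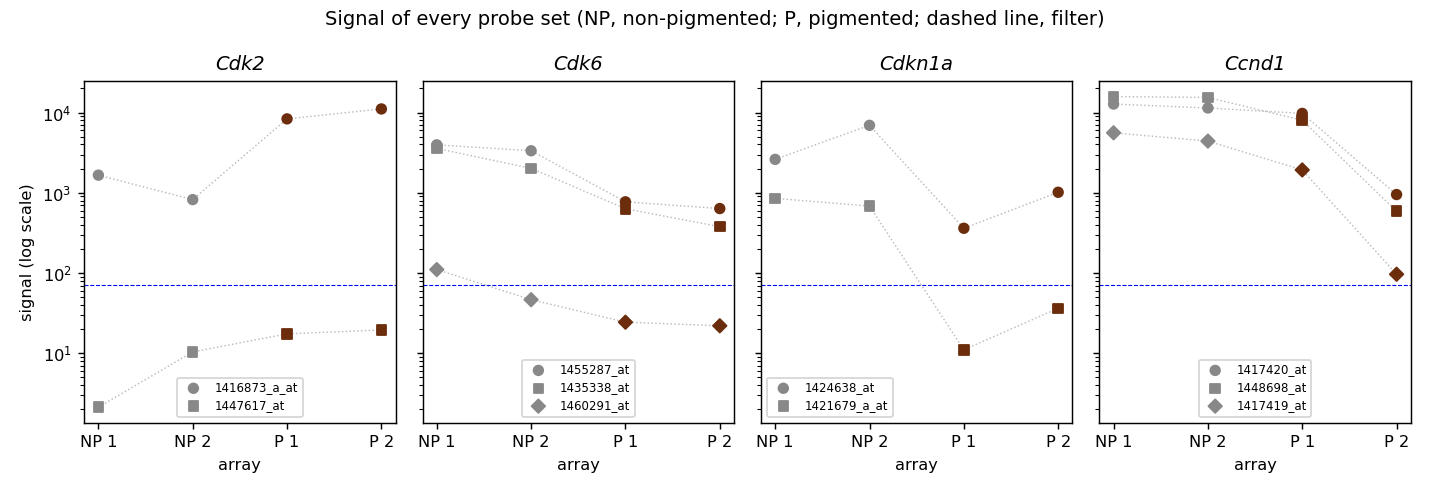
Signal (log scale) of every probe set of Cdk2, Cdk6, Cdkn1a and Ccnd1 in non-pigmented (grey) and pigmented (brown) arrays; marker shapes are probe sets, and the dashed line is the filter value of 70.7. Both brighter Cdk6 probe sets and both Cdkn1a probe sets separate the lines, whereas all 3 Ccnd1 probe sets are lowest in pigmented replicate 2.

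Among the D cyclins, which pass growth factor signals to CDK4 and CDK6, Ccnd1 was by far lowest in 1 array. Its signal was 12766 and 11401 in the non-pigmented arrays, 9760 in pigmented replicate 1 and 952 in pigmented replicate 2. The groups did not overlap, but pigmented replicate 1 lay nearer to the non-pigmented arrays than to pigmented replicate 2. Log2 values were 13.56 ± 0.12 and 11.59 ± 2.36 (SD, n = 2). The log2 difference was -1.97 with an adjusted p of 0.479 by limma, made up of -0.39 in the low and -3.56 in the high ratio pair. The other probe sets read 15822 and 15425 against 8038 and 589, and 5593 and 4412 against 1927 and 96.7. These were lower in the low ratio pair as well, by -0.98 and -1.53, so that part depends on the probe set. Their log2 differences over all 4 arrays were -2.82 and -3.41. With every probe set tested on its own, their adjusted p-values by limma were 0.413 and 0.369. Without pigmented replicate 1 the difference was -3.64 (adjusted p of 0.00187 by limma), and without pigmented replicate 2 it was -0.31 (adjusted p of 0.860).

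Ccnd2 had no such dip. Its signal was 10471 and 8367 against 10589 and 7801, and its log2 difference was -0.04 ± 0.33. Ccnd3 read 3753 and 1448 against 4384 and 1697, higher in the low ratio array of each line, with a log2 difference of 0.22 ± 0.66. A second probe set read 295 and 340 against 195 and 231, lower in both pairs, and another 118 and 202 against 35.9 and 312, lower in 1 pair and higher in the other. Neither gene passed. Of the E cyclins, which activate CDK2 at the start of replication, Ccne1 read 1003 and 1152 against 1003 and 547 and Ccne2 read 376 and 164 against 281 and 54.4. Both were lowest in pigmented replicate 2 and did not pass (adjusted p of 0.731 and 0.728 by limma).

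The CDK inhibitors of both kinds, with Cdkn3 counted among them, had a difference below 0 in 6 of 7 tested, where 45.7% of all genes tested did, and by limma 0 of 7 were called. The 1 inhibitor with an unadjusted p under 0.05 was Cdkn1a, which encodes p21, an inhibitor induced by p53. Its signal was 2612 and 6936 in the non-pigmented and 362 and 1016 in the pigmented arrays. The groups did not overlap, and in each line the high ratio array was the higher. The log2 difference was -2.78 ± 0.70, which is 6.85-fold lower (adjusted p of 0.118 by limma). The difference was -2.80 in the low and -2.75 in the high ratio pair, and -1.35 and -4.20 within the first and second date. With the ratio pair as a block the adjusted p of limma was 0.00785, and Cdkn1a was then called. With the date as a block it was 0.134, and Cdkn1a was not called. Leaving out single arrays gave differences from -3.50 (without pigmented replicate 2) to -2.05 (without pigmented replicate 1).

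A second Cdkn1a probe set read 853 and 684 against 11.1 and 36.4. When every probe set was tested on its own, a setting chosen after the data were seen, it was called lower, at a log2 difference of -4.37 and an adjusted p of 0.0232 by limma. Cdk2 was the other member called there, at an adjusted p of 0.0470, and 1.73% of all 22341 probe sets were called.

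The remaining inhibitors gave smaller or uneven differences. Cdkn1b, which encodes p27, read 2034 and 2292 in the non-pigmented arrays, 1551 in pigmented replicate 1 and 8210 in pigmented replicate 2, the array where Ccnd1 was low. Its log2 difference was -0.39 in the low and 1.83 in the high ratio pair. Cdkn2b, which encodes p15, read 925 and 1300 against 692 and 376, with a log2 difference of -1.08 ± 0.49 and an adjusted p of 0.423 by limma. Cdkn2a, the gene shared by p16 and Arf, read 666 and 303 against 461 and 242, so its signal was above the filter value in all 4 arrays. Its probe set does not separate the transcripts by name, and the log2 difference was -0.41 ± 0.57. Cdkn2c read 4094 and 1749 against 3430 and 1765 and Cdkn2d read 2931 and 1470 against 3242 and 881, both higher in the low ratio arrays. Cdkn1c, with signals from 11.5 to 72.0, was too dim to be tested.

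Most periodic genes were lower in the high ratio arrays of both lines, and lowest in the pigmented one, without a call between lines. The list held Ccna2, Ccnb2, Ccne1, Ccne2, Ccnf, Cdk1, Cdkn3, Cdkn2c, E2f1, E2f2, E2f7, E2f8 and Rbl1, 13 genes, all tested; Ccnb1 was not analysed here. By limma 0 of 13 were called and 0 had an unadjusted p under 0.05 (13.8% of all genes). The median log2 difference was -0.88, with a median of -0.36 in the low and -1.36 in the high ratio pair. In the low ratio pair 1 of 13 was at least 2-fold lower in the pigmented array, where 11% of all genes tested were, and 0 of 13 were 2-fold higher (10.3% of all genes). In the high ratio pair 10 of 13 were at least 2-fold lower, where 13.9% of all genes tested were, and 0 of 13 were 2-fold higher (13.1%). In bulk RNA, fewer cells in a phase and less RNA per cell cannot be told apart.

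Cdk1, the mitotic kinase, shows the pattern. It read 8647 and 6738 in the low ratio arrays (non-pigmented, then pigmented) and 1363 and 424 in the high ratio arrays. The low ratio arrays were highest, and pigmented replicate 2 was lowest. Its log2 difference was -0.36 in the low and -1.65 in the high ratio pair (adjusted p of 0.837 by limma over all 4 arrays). Ccnb2, a B cyclin of mitosis, read 5230, 4232, 951 and 104 in the same order of arrays, and Ccna2, the cyclin of S phase and early mitosis, read 6048, 3924, 1135 and 362. Ccnf, the F-box cyclin of a ubiquitin ligase, read 1072, 676, 234 and 30.6, and Cdkn3, a phosphatase that removes the activating phosphate of CDKs, read 1304, 889, 565 and 104. In all 4 of these as well as Cdk1, both low ratio arrays lay above non-pigmented replicate 2, which lay above pigmented replicate 2. That order held in 9 of 13 periodic members, where 12% of all genes tested had it. Pigmented replicate 2 was the lowest array in 10 of 13, where 26.6% of all genes tested had their lowest value there.

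Within a line, replicate 2 was at least 2-fold below replicate 1 in 12 of 13 periodic members for the non-pigmented and 10 of 13 for the pigmented arrays, where 9.03% and 12.5% of all genes tested were. The median log2 difference of replicate 2 from replicate 1 was -1.28 and -2.62. Both were larger in size than the median difference between lines over all 4 arrays, -0.88. In the high ratio pair the median difference between lines was -1.36, slightly larger than the non-pigmented value. The dates, which pair arrays of opposite ratio, gave medians of opposite sign, -3.08 in the first and 1.47 in the second. Without pigmented replicate 2 the median difference between lines was 0.48, and without non-pigmented replicate 1 it was 0.08. Without non-pigmented replicate 2 it was -1.87. Without pigmented replicate 1, so with pigmented replicate 2 as the only array of its line, it was -2.14. The part of the RNA quality that the Gapdh ratio reads, of the date and of the growth state of the cultures in this pattern was not tested.

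**Figure D3:**
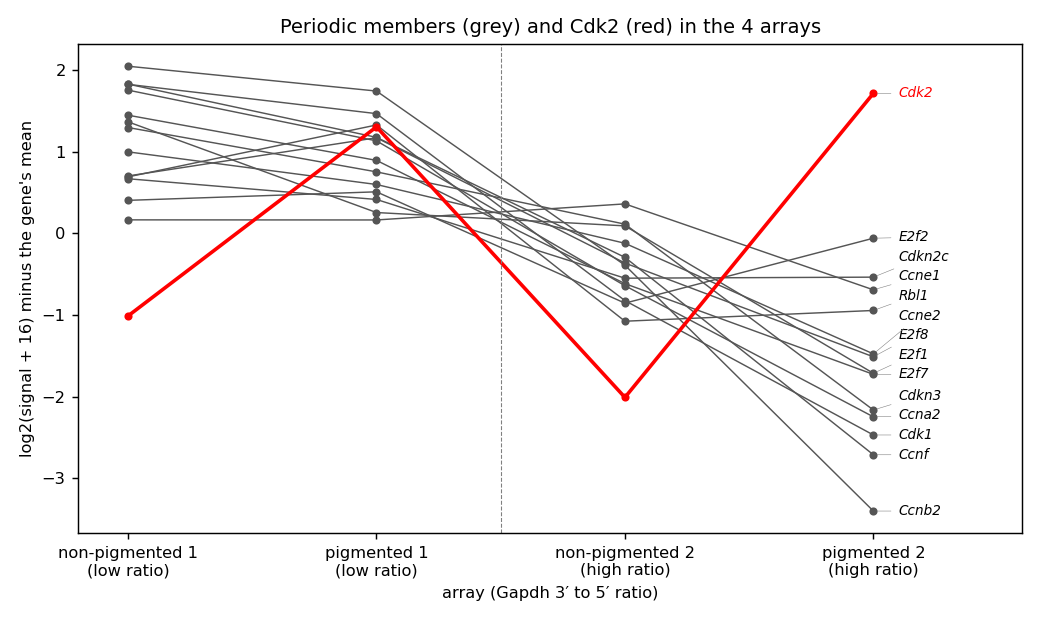
Log2(signal + 16) of 13 periodic members (grey) and Cdk2 (red) minus each gene's own mean over the 4 arrays, with the low ratio pair left and the high ratio pair right of the dashed line. Most grey lines drop from left to right, with Ccne1 nearly level until the last array and Ccnb2 lowest at the end, while Cdk2 goes up with the pigmented line in both pairs.

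Cdk2 was set apart from the periodic genes by its order of arrays: it was highest in pigmented replicate 2, where Ccnb2, Ccnf, Cdk1 and Ccna2 were lowest. Being highest there was not particular to Cdk2, since Cdkn1b, Ccnt2, Rb1 and Cdk16, among other members, were so too. The share of all genes with their highest value there was not counted. In the low ratio pair, where the median of the periodic members was -0.36, Cdk2 differed by 2.32. Its difference from the periodic members was not tested as such.

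The E2F factors did not move together. E2f1, an activator, read 1598 and 651 in the non-pigmented and 731 and 175 in the pigmented arrays. It was lower in the pigmented array of both ratio pairs (-1.11 and -1.81), at a log2 difference of -1.46 ± 0.78 that did not pass (unadjusted p of 0.108 by limma). Within the first and second date the difference was -3.08 and 0.16. The adjusted p of limma was 0.0732 with the ratio pair as a block and 0.736 with the date as a block. The second E2f1 probe set above the filter was also lower in the pigmented array of both ratio pairs, at 736 and 499 against 339 and 90.3. E2f7 and E2f8, atypical repressors that close the S phase programme, read 1018 and 231 against 688 and 98.3, and 1014 and 475 against 1408 and 205. E2f2 and E2f3, activators, differed by 0.45 ± 0.57 and -0.05 ± 0.48, and a second E2f3 probe set by 0.07. E2f4, E2f5 and E2f6, which repress without strong periodicity, differed by 0.35, 0.80 and 0.40, higher in the pigmented array of both pairs. For E2f6 (1499 and 358 against 1730 and 552) a second probe set went the other way, at 696 and 555 against 210 and 287. Of the 8 genes, 0 were called by limma and 0 had an unadjusted p under 0.05. In non-pigmented replicate 2, 6 of 8 were at least 2-fold lower than in replicate 1, where 9.03% of all genes tested were. In the pigmented line 5 of 8 were, where 12.5% of all genes tested were.

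In the Rb family, whose proteins bind and silence E2F, the log2 differences were 0.08 ± 0.58 for Rb1, 0.38 ± 0.91 for Rbl1 and 0.30 ± 0.48 for Rbl2, and none passed by limma (lowest adjusted p 0.861; 0 of 3 at an unadjusted p under 0.05). Rb1 read 1643 and 2277 against 1236 and 3373. Rbl1, which encodes p107 and is itself periodic, read 1097 and 310 against 1714 and 342, high in both low ratio arrays. Rbl2, which encodes p130, read 550 and 292 against 539 and 459. All groups overlapped.

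Cyclins and CDKs of transcription act on RNA polymerase II and splicing, and Cdk7 with Ccnh also activates the CDKs of the cell cycle. Of 7 such cyclins and 6 such CDKs tested, 0 were called by limma and 0 had an unadjusted p under 0.05, and their medians were 0.38 and 0.11. Cdk13, an elongation kinase, had close replicates, at 960 and 866 against 1611 and 1551, with a log2 difference of 0.78 ± 0.41 (adjusted p of 0.491 by limma). Cdk12, its relative, read 274 and 336 against 430 and 552. Cdk9, the kinase of P-TEFb, read 2888 and 2359 against 2967 and 3362, and Cdk8, of the Mediator module, 1774 and 2458 against 1605 and 2489. Cdk7, the CDK-activating kinase, read 624 and 559 against 427 and 225 in its brightest probe set but 215 and 285 against 371 and 538 in another, so its direction depends on the probe set. Ccnt2, a P-TEFb cyclin, read 1773 and 1319 against 1541 and 4457, with pigmented replicate 2 high. Ccnl1 and Ccnl2, cyclins tied to splicing, were also highest there (3327 and 5549). Ccnc, Ccnh, Ccnk, Ccnt1 and Cdk19 differed by 0.38, 0.19, -0.46, -0.13 and -0.33. The probe sets differed in sign for Ccnh, whose others gave -0.10 and 0.30, and for Ccnt1, whose other read 753 and 247 against 1116 and 720 (1.02).

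The other 18 members, of which 16 were tested, include noncanonical cyclins and the Cdk5 and Cdk14 to Cdk18 group. By limma 0 of 16 were called and 0 had an unadjusted p under 0.05, and log2 differences ran from -0.79 (Ccnjl) to 1.14 (Cdk20). Ccng1 and Ccng2, linked to p53 and to growth arrest, moved with the array rather than the line: Ccng1 read 1794 and 4805 against 1823 and 5375, and Ccng2 848 and 2002 against 1089 and 2673. Both were at least 2-fold higher in the high ratio array of each line, opposite to the periodic members; 9.66% and 13.1% of all genes tested were so in the non-pigmented and pigmented line. Their other probe sets above the filter were lower there. For Ccng1 they read 664 and 209 against 680 and 354, and 548 and 493 against 479 and 337. For Ccng2 the other read 307 and 72.7 against 330 and 116. The direction along the Gapdh ratio thus depended on the probe set for these genes. Cdk5, a kinase best known in neurons, read 1042 and 350 against 1588 and 619, and Cdk16 read 7349 and 10887 against 9895 and 14603. Ccny, Ccnyl1, Ccnq, Ccni, Ccnj, Ccno, Ccndbp1, Cdk10, Cdk14 and Cdk17 had log2 differences between -0.05 and 0.59. Ccna1, Ccnb3, Ccnb1ip1 and Cdk18 were too dim to be tested, with signals from 4.31 to 142.

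In all, 33 members had at least 2 probe sets above the filter. In 23 of them every such probe set had 1 sign of the difference, and in 10, Ccnd2, Ccnd3, Ccng1, Ccnh, Ccnt1, Ccnt2, Ccny, Cdk7, E2f3 and E2f6, they had both. None of these 10 was called.

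Periodic genes outside the family were also lower in the high ratio arrays. The list held genes of replication and mitosis that are no cyclin, CDK or E2F, and 47 of its 48 genes were on the array and tested. By limma 0 of 47 were called and 1 of 47 had an unadjusted p under 0.05, while 45 of 47 had a difference below 0 (13.8% and 45.7% of all genes tested). The median was -1.26, with -0.17 in the low and -2.26 in the high ratio pair. In the high ratio pair 33 of 47 were at least 2-fold lower in the pigmented array, against 13.9% of all genes tested. Pigmented replicate 2 was the lowest array in 45 of 47, against 26.6% of all genes tested. Mki67, the proliferation marker Ki-67, read 7998 and 3613 against 8355 and 177, and Top2a, a topoisomerase of dividing cells, 6904 and 2376 against 7245 and 298. Pcna, the replication clamp, read 10286 and 2744 against 11042 and 2366, nearly equal between lines within each pair. The smallest p-values were those of Mcm6 (-1.99 ± 0.82, adjusted p of 0.359 by limma), Ezh2 (-1.21, 0.404), Kif23 (-1.49, 0.573) and Cenpf (-1.78, 0.582). Of the list, only these genes were followed when single arrays were left out. Without pigmented replicate 1 the differences of Mcm6, Ezh2, Kif23 and Cenpf were -3.23, -1.80, -2.96 and -3.41, from 1 pigmented array. Without pigmented replicate 2 they were -0.75, -0.62, -0.03 and -0.14.

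Regulators of CDKs and E2F divided evenly, with 15 of 30 below 0 and 15 above, a median of -0.07. By limma 0 of 30 were called and 2 had an unadjusted p under 0.05 (13.8% of all genes). The smallest p-values were those of Cables1, a CDK-binding adaptor, at 456 and 297 against 165 and 84.2 (-1.51 ± 0.50, adjusted p of 0.239 by limma), and Skp1, a ubiquitin ligase subunit, at 4860 and 6156 against 2727 and 3060 (-0.92 ± 0.36, adjusted p of 0.340). Mdm4, a p53 antagonist, read 431 and 246 against 552 and 1570 (1.47 ± 0.62, adjusted p of 0.378 by limma), and Tfap4 218 and 126 against 307 and 450 (1.09 ± 0.48, adjusted p of 0.397). The mean over the Mdm4 probe sets gave 0.08 (adjusted p of 0.974 by limma), so its size depends on the probe set. None of these regulators passed the test.

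**Figure D4:**
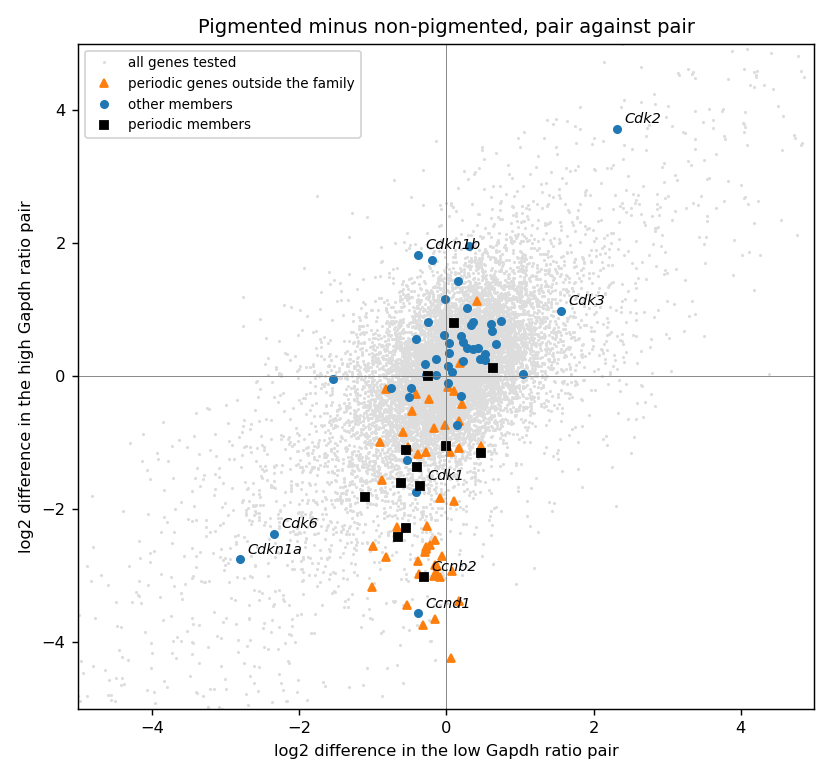
Log2 difference, pigmented minus non-pigmented, in the low ratio pair (x axis) against the high ratio pair (y axis), for all genes tested (light grey; 144 lie outside the axes, which end at 5 in either direction), periodic genes outside the family (triangles), periodic members (black squares) and other members (circles). Cdk6 and Cdkn1a have like values in both pairs, and Cdk2 is at 2.32 and 3.73. The median of the periodic members is at -0.36 on the x axis and -1.36 on the y axis, with E2f2, Rbl1 and Cdkn2c above 0 on the latter, and Ccnd1 is at -0.39 and -3.56.

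Across the 60 members tested, 45 had the same sign of the difference in both pairs (69.4% of all genes tested did). Cdk2 and Cdk3 (higher) and Cdk6, Cdkn1a and E2f1 (lower) had the largest differences shared by both pairs, the smaller of the 2 being at least 0.99 in size after rounding.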

How the data were processed

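Total RNA of 4 samples was hybridised to 1 array each. The deposited table holds linear intensities, 1 for each probe set, made by the authors with Affymetrix Expression Console, per the submitters' processing notes; its version, summary algorithm and background correction are not given in the sources used here. In every deposited column the mean intensity after trimming 2% at either end was 500, a common scale set by the authors. There is no detection column, so dim probe sets could not be told from background.

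Each of 18193 genes took its probe set with the highest mean log2 value. Genes with a mean below the 40th percentile of all probe sets (log2 value 6.44, signal 70.7) were not tested, 5635 in all. limma 3.58.1 in R 4.3.3 (lmFit, eBayes with an intensity trend) compared the lines on log2(signal + 16) with 4 arrays and 2 residual degrees of freedom. P-values were adjusted by Benjamini-Hochberg over 12558 genes. Fold changes of dim genes are understated on this scale. The p-values measure the spread between these arrays, which may be technical, and an exact permutation test of 2 arrays against 2 cannot go below 0.333. All 65 member symbols matched RefSeq by Entrez number. Blocks were the title dates and the pairs divided at a Gapdh ratio of 3. Other alternatives were quantile and median scaling, pseudocounts of 1 and 64, no filter or the 60th percentile, the mean of probe sets, no trend, and leaving out each array, which takes the lone array of a line to spread as the others do. Code was tested on simulated data. The rule for members uses symbols only, but this gene family, and so its members, the lists and the tests were chosen with earlier results of these data known. Members past the test, with an unadjusted p under 0.05, and Cdk2 were named first, then every other member by role; Tyr, Pmel, Mitf and, of each pathway list, the 4 smallest p-values were named, and further genes of those lists after their values were seen. The role groups, the probe set fit, the emphasis on Ccnd1 and Cdkn1b, the 2-fold and array-order counts, the motifs and the promoters printed were also chosen after values were seen. Plots used matplotlib 3.10.9 (Python 3.11.15).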

Additional observations from a re-analysis of the deposited data

How the results depend on the processing

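The members called were 2 of 60. There was 1 with the date as a replicate block (Cdk2) and 1 with the mean of probe sets (Cdkn1a), and leaving out single arrays gave 0 (without non-pigmented replicate 2) to 6 (without pigmented replicate 1). The members' median of 0.14 became -0.14 with centring on the median, and without single arrays it ran from -0.15 (without non-pigmented replicate 2) to 0.27. That centring moved the median of all genes from 0.07 to -0.20 and the calls over all genes from 167 higher and 255 lower to 132 and 323. The median of the periodic members (-0.88) ran from -2.14 to 0.48 without single arrays, and the count of periodic members called from 0 to 3. All genes called numbered 422, 884 with the ratio pair as a block, 392 with the date as a replicate block, and 234 (without non-pigmented replicate 2) to 772 (without pigmented replicate 1) when single arrays were left out. Among single genes, Cdk2, Cdk6, Cdkn1a, Cdk3, Ccnd1, Tyr, Pmel, Mitf and the 8 pathway genes with the smallest p-values kept their direction in every alternative where they were tested (14 each, 13 for Cdk3). The blocks, the filters and the omission of the trend cannot change a difference. Only the remaining alternatives could have turned a direction. Adjusted p-values of limma ran from 0.0116 to 0.0874 for Cdk2, from 0.0122 to 0.223 for Cdk6 and from 0.00785 to 0.425 for Cdkn1a. Tyr (log2 difference 6.69, adjusted p 0.00618 by limma) was past the threshold in all 14, as were Pmel and Mitf. Across genes, deviations from the group mean correlated at -0.51 between arrays of the same date, which with 2 arrays a line fixes the value for arrays of the same ratio class at 0.51. No filter on detection could be set, so sizes of genes below a signal of 70.7 in one line are limited by the pseudocount.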
